A study of Homo sapiens with 24 samples.

Results

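The histone and tRNA gene cluster on the short arm of chromosome 6 (6p22) was described by its OG signal in HAP1 cells, a near-haploid human line derived from the leukemia line KBM-7. OG stands for 8-oxoguanine. The members are all bins of 1 kb within chr6:26000001-28600000 (GRCh38) that the deposited table lists. The table holds 2436 of the 2600 possible bins of this stretch, of 2835235 bins in all. The other 164 bins form a single gap (chr6:26669001-26833000), which holds 18 of the 108 tRNA genes and no histone gene. The cluster was compared with the stretch of equal length at chr6:23000001-25600000, called the neighbouring region (2600 bins).

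OG-seq was done on 4 genotypes: WT cells, MUTYH-/ cells, OGG1-/ cells, and DKO cells, which lack MUTYH as well as OGG1. The knockouts carry small insertions or deletions made with CRISPR-Cas9, and all cells were grown without a damaging agent at atmospheric oxygen. Per the labels, each genotype has 3 OG libraries from 2 clones, so that a clone supplied more than 1 of them. Per the methods, both DKO clones came from a single OGG1-/ clone. The table names its 3 columns of a genotype by number only, without a clone or experiment, and p-values measure the spread between these columns. Fragments with OG were labeled with biotin, pulled down and sequenced beside input DNA. The table does not show the loss of either glycosylase, so the genotype of a column was taken from its name.

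Histones package DNA into nucleosomes. Genes of the replication-dependent histones are short, lack introns in their main form, lie in clusters and are transcribed in S phase from promoters that often share elements such as the CCAAT box and the TATA box. tRNA genes are transcribed by RNA polymerase III from promoter elements inside the gene, the A box and the B box. OG is an oxidized guanine. OGG1 excises it opposite cytosine, and MUTYH removes adenine that was inserted opposite it. Guanine in runs of guanine is known to be oxidized easily.

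The bins with the highest and lowest signal show the range of sequence in the cluster. The 200 central bases of the highest bin and the 2 lowest bins are given on the plus strand, with runs of 3 or more G or C in capitals, since a run of C is a run of G on the other strand.
highest bin, chr6:26451401-26451600: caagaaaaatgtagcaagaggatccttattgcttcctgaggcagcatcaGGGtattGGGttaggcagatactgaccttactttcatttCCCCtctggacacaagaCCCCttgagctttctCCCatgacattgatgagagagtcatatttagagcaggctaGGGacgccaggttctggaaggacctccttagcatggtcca
lowest bin, chr6:27314401-27314600: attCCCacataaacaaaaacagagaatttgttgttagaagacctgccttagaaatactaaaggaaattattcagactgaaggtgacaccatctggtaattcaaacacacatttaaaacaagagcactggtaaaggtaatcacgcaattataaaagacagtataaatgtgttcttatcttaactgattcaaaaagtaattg
second lowest bin, chr6:26952401-26952600: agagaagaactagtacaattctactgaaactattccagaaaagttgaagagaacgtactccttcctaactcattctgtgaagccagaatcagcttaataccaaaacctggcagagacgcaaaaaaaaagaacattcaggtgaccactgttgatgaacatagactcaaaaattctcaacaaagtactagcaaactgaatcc

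Over their full 1000 bases, the highest bin, in BTN3A3 (chr6:26451001-26452000), held 33 such runs. The lowest bin (chr6:27314001-27315000) held 10 and the second lowest (chr6:26952001-26953000) held 7. The mean of a cluster bin was 19.5 ± 8.19 runs (SD over 2436 bins). When cluster bins were ordered by their mean signal and split into 4 groups of 609, the number of runs per bin was 15.5 in the lowest group, 18.5 and 20.5 in the groups between, and 23.4 in the highest. GC content rose over the same groups from 37.4 % to 44.6 %. These are descriptions of bins ordered by their signal, and runs and GC content were not separated.

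The promoters of linker histone genes are given because each of these genes is described by its values. The 150 bases before the start of each gene are printed 5′ to 3′ as RefSeq gives them (GRCh38.p14), with the CCAAT box (CCAAT), the TATA box (TATAAA) and the H1 box (AAACACA), searched on both strands, in capitals.
H1-1 promoter, chr6:26017788-26017937, - strand: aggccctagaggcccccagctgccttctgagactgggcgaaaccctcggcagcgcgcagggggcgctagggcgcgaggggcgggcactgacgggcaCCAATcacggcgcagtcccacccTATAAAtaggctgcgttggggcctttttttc
H1-2 promoter, chr6:26056471-26056620, - strand: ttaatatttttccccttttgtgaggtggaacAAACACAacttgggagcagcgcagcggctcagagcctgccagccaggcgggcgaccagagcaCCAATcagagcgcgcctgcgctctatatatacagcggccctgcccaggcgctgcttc
H1-3 promoter, chr6:26234988-26235137, - strand: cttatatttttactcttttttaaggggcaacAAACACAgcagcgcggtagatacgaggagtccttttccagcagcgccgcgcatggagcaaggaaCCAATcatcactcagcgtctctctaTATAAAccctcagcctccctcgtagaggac
H1-4 promoter, chr6:26156179-26156328, + strand: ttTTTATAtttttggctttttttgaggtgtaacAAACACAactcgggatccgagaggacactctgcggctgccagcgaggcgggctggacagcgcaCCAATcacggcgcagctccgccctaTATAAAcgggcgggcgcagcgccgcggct
H1-5 promoter, chr6:27867589-27867738, - strand: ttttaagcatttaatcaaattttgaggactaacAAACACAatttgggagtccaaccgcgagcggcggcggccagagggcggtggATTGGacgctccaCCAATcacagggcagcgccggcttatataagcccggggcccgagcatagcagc

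RefSeq promoters matched 52 of the 53 histone genes. CCAAT was found in 45 of these 52 and in 23.5 % of all 35116 promoters of the same length. TATAAA was found in 28 of 52 and in 6.71 % of all, and AAACACA in 5 of 52 and in 2.71 % of all. The 5 with AAACACA are linker histone genes, which have 6 members in the cluster. H1-1 is the linker histone gene without this match.

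Among the tRNA genes, 87 of 108 matched the B box (GTTCNANNC) on either strand. A leucine tRNA gene with a high signal, TRL-CAA3-1, is printed with 2 of the lowest, TRQ-CTG2-1 for glutamine and TRG-GCC2-3 for glycine, each 5′ to 3′ on the gene's strand with the B box in capitals.
TRL-CAA3-1, chr6:27602569-27602675, - strand: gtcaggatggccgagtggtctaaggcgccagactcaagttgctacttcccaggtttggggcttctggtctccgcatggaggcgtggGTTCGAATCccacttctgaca
TRQ-CTG2-1, chr6:27547752-27547823, - strand: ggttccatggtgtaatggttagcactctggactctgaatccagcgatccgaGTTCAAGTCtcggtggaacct
TRG-GCC2-3, chr6:27902908-27902978, - strand: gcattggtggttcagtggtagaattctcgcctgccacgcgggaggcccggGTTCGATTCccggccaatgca

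The sequences were read from GRCh38 at the positions of RefSeq.

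The deposited value of a bin is the number of OG reads minus the input reads after scaling, and it falls below 0 where scaled input exceeds the OG reads. Each column was divided by its mean over all bins, so that a relative signal of 1 is the mean of the genome in that column. Whole reads could be solved from the values in at least 99.9997 % of bins of each column, with none unsolved in the cluster. The columns held 59601849 to 113915679 OG reads. A cluster bin had on average 20.6 to 40.0 OG reads and 26.4 to 34.6 input reads, depending on the column. Counting error alone gave a bin an SD of 0.713 to 0.886 in relative signal (median bin of each column), and the median SD among the 3 columns of a genotype was 1.01 to 1.09. Values of single bins are therefore weak, and means over many bins carry the comparisons. In the cluster, 20.4 to 25.0 % of the bins were below 0, against 22 to 24.7 % of all bins.

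The cluster had the OG signal of an average part of the genome in all genotypes. Its mean relative signal was 0.992, 0.968 and 0.995 in the WT columns, 1.03, 0.997 and 0.971 in MUTYH-/, 1.01, 1.04 and 0.980 in OGG1-/, and 1.04, 0.988 and 1.05 in DKO. The genotypes overlap. The WT mean was 0.985 ± 0.0150 (SD, n = 3), MUTYH-/ cells had 0.9991 ± 0.0292, OGG1-/ cells 1.01 ± 0.0321 and DKO cells 1.03 ± 0.0326. MUTYH-/ exceeded WT by 0.0142 ± 0.0190 (SE; exact two-sided permutation p = 0.4), OGG1-/ by 0.0259 ± 0.0205 (exact p = 0.3) and DKO by 0.0409 ± 0.0207 (exact p = 0.3). Leaving out 1 replicate number moved the MUTYH-/ value between 0.00254 (without 1) and 0.0336 (without 3), the OGG1-/ value between 0.000787 (without 2) and 0.0467 (without 3), and the DKO value between 0.0357 and 0.0511. All 3 p-values were at 0.4 after Benjamini-Hochberg adjustment over the knockouts. With 3 columns against 3, the smallest p that this exact test allows is 0.1, so no comparison of 1 value between genotypes could pass 0.05.

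The neighbouring region (neighbour) had less OG signal than the cluster. Its relative signal was 0.874, 0.929 and 0.865 in the WT columns, 0.807, 0.899 and 0.926 in MUTYH-/, 0.837, 0.837 and 0.872 in OGG1-/, and 1.01, 0.895 and 0.964 in DKO. The cluster was higher within each of the 12 columns, by 0.112 ± 0.0622 on average (SD of the difference, n = 12; permutation test by sign flips over columns, two-sided p = 0.000488, the smallest it can give). By genotype the mean difference was 0.0953 (WT), 0.122 (MUTYH-/), 0.162 (OGG1-/) and 0.0699 (DKO), and the change of this difference from WT was 0.0264 (exact p = 0.8), 0.0669 (exact p = 0.3) and -0.0254 (exact p = 0.5).

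The regions differ in base composition. The GC content was 41.0 % in the cluster and 39.1 % in the neighbouring region, and CpG dinucleotides numbered 13.0 and 8.06 per kb. A G-quadruplex (G4) motif, 4 runs of at least 3 G with short loops on either strand, was present in 7.43 % of the cluster's bins and 6.62 % of the neighbour's. After each column was centred within 20 strata of GC content, the cluster exceeded the neighbouring region in 6 of 12 columns, by 0.00320 on average (permutation p = 0.796). The log2 ratio of OG to input reads, relative to the ratio over the genome, was higher in the cluster by 0.0407 (11 of 12 columns; permutation p = 0.00146).

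**Figure D1:**
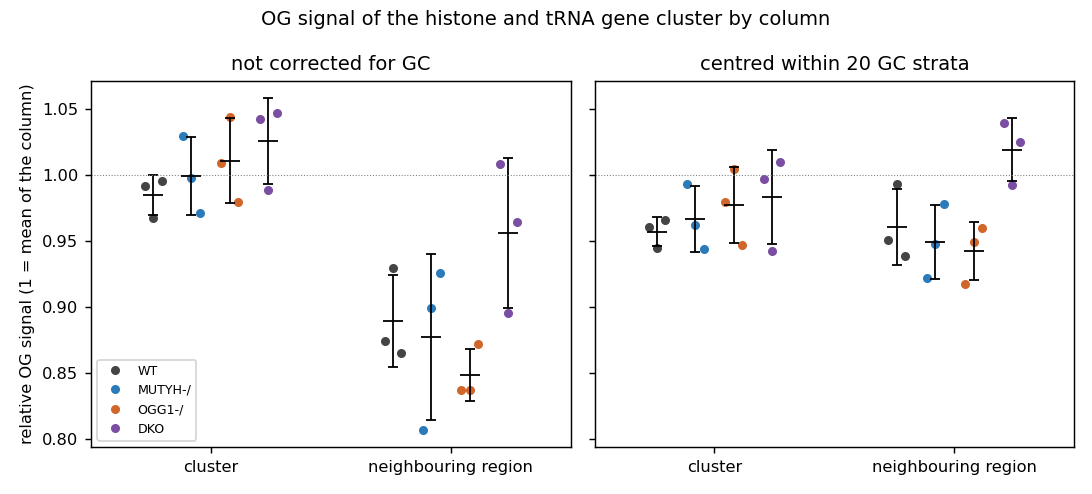
Relative OG signal of the cluster and the neighbouring region, with 1 point for each of the 12 columns by genotype and black lines for the mean ± SD of 3 columns. Without correction the cluster lies above the neighbouring region in each column, and after centring within GC strata both lie between 0.918 and 1.04.

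Within the cluster, OG signal followed GC content. The bins were split at 37.3, 40.8 and 44.3 % GC into 4 groups of 602 to 622 bins. The mean relative signal over 12 columns was 0.665 ± 0.113 in the group lowest in GC, 0.922 ± 0.0572 and 1.095 ± 0.0395 in the groups between, and 1.33 ± 0.139 in the highest (SD over columns, n = 12). Over bins, signal and GC content had r from 0.101 to 0.322 in the 12 columns (2436 bins, which share library and depth within a column). Between columns, r over the bins was only -0.00203 to 0.130. Bins with a G4 motif had a relative signal of 1.05 ± 0.125 and those without one 1.00 ± 0.0292, at a GC content of 44.9 and 40.7 %. Centred within GC strata of the genome, the order turned, with 0.826 ± 0.115 and 0.983 ± 0.0262.

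Along the cluster, windows of 100 kb traced the same features. The mean over all columns was highest at chr6:26400001-26500000 (1.23 at 44.4 % GC), which holds butyrophilin genes, and at chr6:26300001-26400000 (1.23 at 43.2 % GC), which holds butyrophilin and tRNA genes. It was lowest at chr6:26900001-27000000 (0.728 at 35.3 % GC) and at chr6:27900001-28000000 (0.739 at 36.6 % GC). In each knockout against WT, limma (trend over all 12 columns, log2 of relative signal plus 0.1) called 0 of the 25 windows of the cluster at an adjusted p under 0.05. Over the genome, it called 0 % of 28114 windows in MUTYH-/, 0 % in OGG1-/ and 0.0107 % in DKO. At an unadjusted p under 0.05, there were 0 of 25 windows in MUTYH-/ (background 3.35 % of windows), 0 of 25 in OGG1-/ (4.63 %) and 2 of 25 in DKO (4.43 %).

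The smallest p in both single knockouts was in the window at chr6:26600001-26700000, beside the gap, with 69 bins. Its relative signal was 0.720, 0.779 and 0.877 in WT, 0.995, 0.979 and 1.07 in MUTYH-/, 1.07, 1.22 and 0.860 in OGG1-/, and 1.08, 0.596 and 1.08 in DKO. The MUTYH-/ columns lay above WT, and the OGG1-/ columns overlapped with WT. The log2 difference from WT was 0.33 ± 0.18 (SE; limma adjusted p = 1.00) in MUTYH-/ and 0.36 ± 0.18 (limma adjusted p = 0.985) in OGG1-/. In DKO the smallest p was at chr6:26800001-26900000, where 67 bins were measured. There the WT columns had 0.998, 1.03 and 0.642 and the DKO columns 1.17, 1.11 and 1.18, a log2 difference of 0.36 ± 0.16 (limma adjusted p = 1.00).

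**Figure D2:**
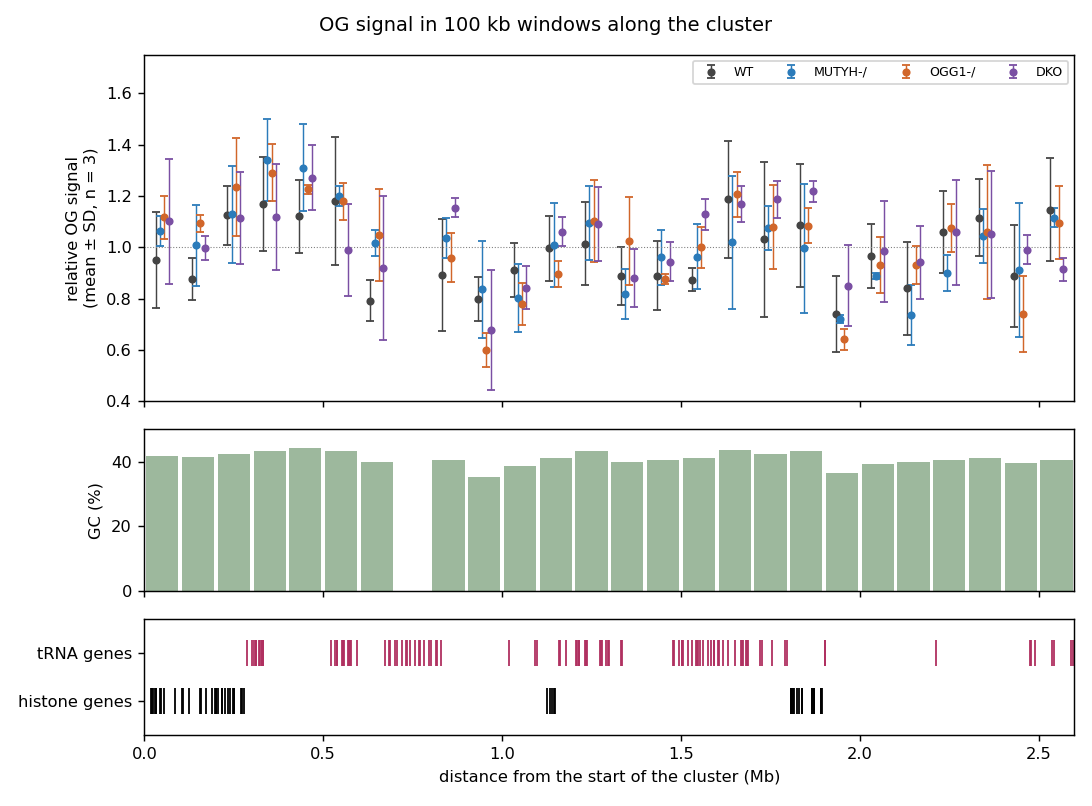
Relative OG signal (mean ± SD of 3 columns per genotype) in 100 kb windows of the cluster by distance from its start, above the GC content of each window in percent and the positions of 53 histone and 108 tRNA genes. Windows poor in GC, such as those at 35.3 and 36.6 %, are low in all genotypes, and no window separates a knockout from WT past the adjusted threshold.

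The histone genes of the cluster numbered 53 in GENCODE 44: 6 linker (H1), 11 H2A, 14 H2B, 10 H3 and 12 H4 genes. Bins with at least 200 bp of a gene body or of the 1 kb before it were taken as histone gene bins (191 bins). Their relative signal was 1.103 ± 0.129, against 0.997 ± 0.0288 in the other cluster bins (SD, n = 12). They were higher in 9 of 12 columns, by 0.107 ± 0.132 (permutation p = 0.0146). This call was lost without the columns numbered 1 (0.0961, permutation p = 0.0703), without those numbered 2 (0.107, permutation p = 0.0781) and with values below 0 set to 0 (0.0600, permutation p = 0.0659). The test pooled the columns of all genotypes. OGG1-/ columns had the largest mean excess, 0.281 (above 0 in 3 of 3). Lower means were found for DKO (0.0865), WT (0.0359) and MUTYH-/ (0.0224), with 2 of 3 columns above 0 in each. The test was not run without the OGG1-/ columns. Histone gene bins had 43.3 % GC and 24.3 CpG per kb, against 40.8 % and 12.1 in the others. Centred within GC strata, they differed from the others by -0.0371 (higher in 5 of 12 columns; permutation p = 0.298), so the direction of the difference turned with this correction.

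The histone gene bins had a mean relative signal of 1.27 in OGG1-/ and 1.02 in WT, a difference that did not pass the test. By column, the relative signal was 1.12, 0.916 and 1.01 in the WT columns, 1.05, 1.11 and 0.8995 in MUTYH-/, 1.33, 1.24 and 1.24 in OGG1-/, and 1.04, 1.12 and 1.16 in DKO. All OGG1-/ columns lay above all columns of the other genotypes. Each OGG1-/ column, like each DKO column, also held more OG reads than each WT column. The part of depth in these values was not tested. The difference from WT was 0.252 ± 0.0668 in OGG1-/ (SE; exact p = 0.1, the smallest this design allows, and 0.3 after adjustment over 3 knockouts). It was 0.00175 ± 0.0864 in MUTYH-/ (exact p = 1) and 0.0875 ± 0.0698 in DKO (exact p = 0.3). The test therefore does not pass a threshold of 0.05 for any genotype. Counting error of the mean over these bins was an SD of 0.0532 to 0.0643 per column.

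The bins of the cluster outside histone genes were close in these genotypes. They had 0.982 ± 0.0109 in WT and 0.989 ± 0.0354 in OGG1-/. The difference between histone and other bins was 0.0359 in WT and 0.281 in OGG1-/, a change of 0.245 ± 0.0697 (exact p = 0.1, and 0.3 after adjustment). The span from low to high GC was wider in OGG1-/ columns. The highest of the 4 GC groups of the cluster had 1.25 in WT and 1.45 in OGG1-/, and the lowest 0.687 and 0.573. Within the highest GC group, histone gene bins (84 bins) had 1.24 ± 0.283 in WT and 1.67 ± 0.140 in OGG1-/, and bins outside histone and tRNA genes (503 bins) 1.27 ± 0.0504 and 1.42 ± 0.132. Centred within GC strata, the histone gene bins of OGG1-/ exceeded WT by 0.209 ± 0.0678 (exact p = 0.1). Their log2 ratio of OG to input reads, which was not centred for GC, exceeded WT by 0.108 ± 0.0342 (exact p = 0.1).

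**Figure D3:**
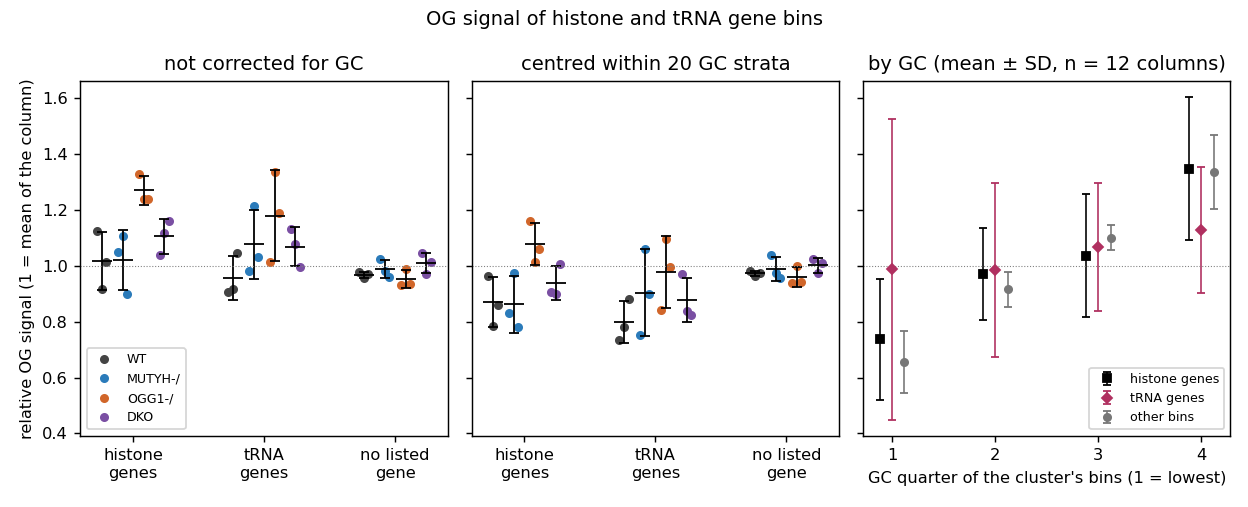
Relative OG signal of histone gene bins, tRNA gene bins and bins without a listed gene, before and after centring within GC strata (points are columns, black lines the mean ± SD of 3), and by GC content of the cluster's bins in 4 groups (mean ± SD of 12 columns). The 3 OGG1-/ columns have the highest histone values, from 1.24 to 1.33, and histone gene bins rise over the 4 GC groups from 0.737 to 1.35, bins outside both gene classes from 0.657 to 1.34, and tRNA gene bins from 0.988 to 1.13 with no rise from the lowest group to the next.

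Annotated histone genes vary in length. There were 44 genes of at most 2 kb (median 487 bp, 74 bins) and 9 longer ones (median 12597 bp), such as H2BC4 and H2BC15, whose annotated transcripts run far past the histone coding part. In the bins of the 44 short genes, the relative signal was 1.30, 0.838 and 0.976 in WT, 0.989, 0.922 and 0.857 in MUTYH-/, 1.62, 1.67 and 1.45 in OGG1-/, and 1.29, 1.31 and 1.27 in DKO. The OGG1-/ columns were again above all others, and the difference from WT was 0.544 ± 0.153 (exact p = 0.1). The 117 bins covered by longer genes alone had 1.00 ± 0.0369 in WT and 1.07 ± 0.0933 in OGG1-/. This split was chosen after the values had been seen.

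By family, OGG1-/ and WT columns did not overlap for linker histones and H3. Linker histones bind the DNA between nucleosomes, and H3 is one of the 4 core histones. Linker histone gene bins (14 bins, 46.6 % GC, 4 of them with a G4 motif) had 0.802, 0.849 and 0.928 in WT and 1.73, 1.30 and 1.66 in OGG1-/, a difference of 0.704 ± 0.139. The MUTYH-/ columns had 0.838 to 1.00 and the DKO columns 0.772 to 1.31. H3 gene bins (27 bins) had 1.04, 1.11 and 0.616 in WT and 1.74, 1.65 and 1.35 in OGG1-/, a difference of 0.659 ± 0.194. The difference was 0.407 ± 0.265 for H2A, 0.110 ± 0.0980 for H2B and 0.322 ± 0.195 for H4, and in these families OGG1-/ and WT overlapped. The exact p was 0.1 for linker histones and H3, 0.2 for H2A and H4 and 0.3 for H2B. None was under 0.75 after adjustment over the 15 comparisons of 5 families and 3 knockouts, a set of tests chosen once the values were known. Genes of different families share bins where they lie close together.

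Counted over genes, 38 of 53 histone genes had a higher mean in OGG1-/ than in WT, with a median difference of 0.425. Over all cluster bins, 50.6 % were higher in OGG1-/ and the median difference was 0.0257, and over all bins of the genome 49.2 % were higher. In MUTYH-/ 23 of 53 genes were higher (median -0.181), against 51.0 % of cluster bins and 49.4 % of all bins. In DKO 33 of 53 were higher (median 0.129), against 51.7 % and 49.6 %. Genes that share bins are each counted. By family, OGG1-/ was higher in 5 of 6 linker histone, 8 of 11 H2A, 8 of 14 H2B, 8 of 10 H3 and 9 of 12 H4 genes. Among the 35 other protein-coding genes it was 20 (median 0.0828). These counts compare with the same WT columns and are descriptions.

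**Figure D4:**
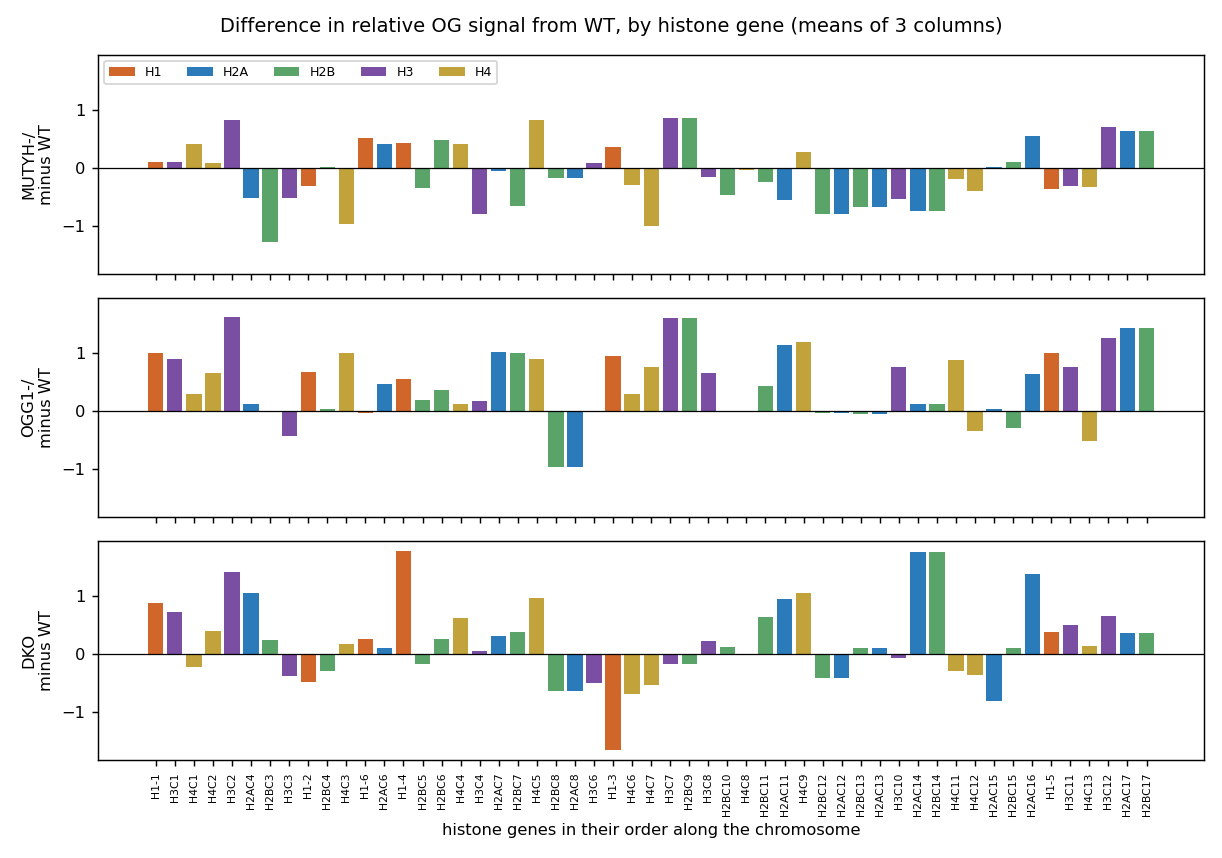
Difference in relative OG signal between each knockout and WT (means of 3 columns) for the 53 histone genes in their order along the chromosome, coloured by family. In OGG1-/ 38 of 53 bars are above 0, in DKO 33 and in MUTYH-/ 23. Neighbouring genes with equal bars share their bins.

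Among the linker histone genes, H1-5 had the highest mean over all columns (1.34 ± 0.869, SD, n = 12) and H1-4 the lowest (0.879 ± 0.934). H1-3 (chr6:26234212-26234987) had 0.360, 1.82 and 2.02 in WT, 1.97, 1.54 and 1.77 in MUTYH-/, 2.52, 2.34 and 2.18 in OGG1-/, and -0.160, -0.557 and -0.0551 in DKO. Its DKO columns lay below all others and its OGG1-/ columns above them. H1-4 (chr6:26156329-26157115) had -0.411, 0.590 and 0.399 in WT and 2.33, 2.87 and 0.708 in DKO, so that the order of DKO and WT was opposite to that of H1-3. Each of these genes covers 2 bins, with a median of 61.5 to 66 OG reads per column.

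The testis-specific H1-6 (chr6:26107412-26108135) was the only linker histone gene whose mean was lower in OGG1-/ (0.878) than in WT (0.921). H1-1 had means of 0.397 in WT and 1.396 in OGG1-/, H1-2 of 0.984 and 1.64, and H1-5 of 1.09 and 2.08. The SD over the 12 columns was between 0.651 and 1.09 for the 6 genes. These differences between means are of the size of that spread.

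Of the core histone genes, the divergent pair H2AC8 and H2BC8 (chr6:26216200-26217437), which share 2 bins, had the highest level, 2.21 ± 0.782 (SD, n = 12). Their signal was 2.88, 2.61 and 2.50 in WT and 1.14, 1.42 and 2.52 in OGG1-/, the reverse of most other histone genes. The lowest pair of these families was H2AC13 and H2BC13 at 0.919 ± 0.815. H3C12 had the highest level of H3 genes (1.38 ± 0.631) and H3C6 the lowest (0.834 ± 0.616). Among H4 genes, H4C1 was highest (1.46 ± 0.715) and H4C3 lowest (0.767 ± 1.02). These genes were chosen by their level, which is given without a test, and neighbours in the order do not differ beyond their spread.

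The histone genes lie in stretches separated by a wide gap. The first, with 32 genes (chr6:26017032-26285638), had a relative signal of 1.29 ± 0.104 in OGG1-/ columns, 1.02 ± 0.0635 in WT, 1.02 ± 0.109 in DKO and 1.06 ± 0.130 in MUTYH-/ columns. The second, with 21 genes (chr6:27125897-27893891), had 1.23 ± 0.0833, 1.01 ± 0.233, 1.33 ± 0.127 and 0.922 ± 0.153 in the same order. OGG1-/ and WT columns did not overlap in the first stretch (1.22 to 1.405 against 0.947 to 1.06) and overlapped in the second (1.14 to 1.29 against 0.837 to 1.28), where the DKO columns (1.18 to 1.41) also overlapped with WT.

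The tRNA genes numbered 108 in RefSeq, of which 90 lay in measured bins (92 bins). tRNA gene bins had a relative signal of 0.908, 0.915 and 1.05 in WT, 0.983, 1.22 and 1.03 in MUTYH-/, 1.01, 1.34 and 1.19 in OGG1-/, and 1.13, 1.08 and 0.996 in DKO. The genotypes overlap. Over all columns, tRNA gene bins had 1.07 ± 0.128 and the other cluster bins 1.00 ± 0.0287, a difference of 0.0678 in the direction of tRNA genes in 8 of 12 columns (permutation p = 0.0933). With an overlap of at least 50 bp this was 0.0818 (permutation p = 0.0386), and with 500 bp added on either side of each gene 0.0648 (permutation p = 0.0283). Centred within GC strata, the tRNA gene bins differed from the others by -0.0845 (higher in 3 of 12 columns; permutation p = 0.0391), and the log2 ratio of OG to input reads differed by 0.00563 (permutation p = 0.725). MUTYH-/ columns exceeded WT by 0.1197 ± 0.0842 (exact p = 0.3), OGG1-/ by 0.222 ± 0.104 (exact p = 0.2) and DKO by 0.112 ± 0.0604 (exact p = 0.2). Single columns moved these values: without 1 replicate number, MUTYH-/ spanned 0.0295 (without 2) to 0.188 (without 3), OGG1-/ 0.123 (without 2) to 0.281 (without 1) and DKO 0.0561 (without 1) to 0.194 (without 3). With 500 bp added on either side of each gene, the OGG1-/ difference was 0.0903.

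Single tRNA loci fall in 1 or 2 bins and ranged from 1.80e-05 to 2.25. The 3 highest were TRY-GTA8-1 for tyrosine (2.25 ± 1.25), TRL-CAA3-1 (2.22 ± 1.80) and TRS-AGA2-1 for serine (1.94 ± 1.28; SD, n = 12). The lowest were TRQ-CTG2-1 (1.80e-05 ± 0.985) and TRG-GCC2-3 with TRX-CAT1-7, a methionine tRNA gene, which share a bin (0.127 ± 0.711). TRL-CAA3-1, printed above, had 0.158, -1.06 and 1.81 in WT, 1.46, 0.931 and 3.93 in MUTYH-/, 3.31, 3.45 and 1.89 in OGG1-/, and 5.56, 3.35 and 1.80 in DKO. The OGG1-/ columns lay above WT, and the DKO columns did so apart from one at the level of the highest WT column.

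By isotype, the median signal was highest for the 2 measured alanine tRNA genes (1.64) and 1.37 for 10 isoleucine genes. It was 1.15 for the 17 serine genes, 1.06 for 9 arginine genes and 0.907 for 7 threonine genes. The 18 genes in the gap of the table were 10 of the 12 alanine, 3 of the 13 isoleucine and all 5 TRM methionine genes.

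Of the other genes of the cluster, the butyrophilins, immunoglobulin-like surface proteins of which BTN3A1 is known for activating γδ T cells, had a relative signal above 1 in all 6 genes (median 1.29), at a GC content of 43.8 to 45.5 %. BTN1A1 (1.49 ± 0.381) and BTN2A1 (1.36 ± 0.305) were among the 3 highest protein-coding genes outside the histones, with the olfactory receptor locus OR2B8P (1.42 ± 1.03). BTN3A1 had 1.16 ± 0.327 and BTN2A2 1.02 ± 0.393. HFE, the hemochromatosis gene that limits iron uptake, had 1.22 ± 0.354. Its columns read 1.28, 1.51 and 1.103 in WT, 1.34, 1.76 and 1.35 in MUTYH-/, 1.14, 0.375 and 1.47 in OGG1-/, and 0.892, 1.38 and 1.04 in DKO, which overlap.

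The glutathione peroxidase genes, which encode enzymes that reduce peroxides, had 1.19 ± 0.194 (GPX6) and 0.986 ± 0.290 (GPX5). The thymic serine protease gene PRSS16 had 0.957 ± 0.454. Zinc finger and SCAN domain genes were lower, with a median of 0.926 and 4 of 16 genes above 1. Among them ZNF184 had 0.840 ± 0.275, ZSCAN12 0.968 ± 0.261 and ZNF322 0.737 ± 0.231 (SD, n = 12). The other low genes were OR2B6 (0.531 ± 0.731) and NKAPL (0.782 ± 0.673). Bins without any listed gene had 0.980 ± 0.0342 at 40.4 % GC. GC content did not order these genes throughout. ZNF322 had 37.7 % GC and BTN1A1 45.3 %, but the high OR2B8P had 35.15 %, the low NKAPL 44.4 % and PRSS16 48.5 %.

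Whether the cluster held fewer OG-enriched bins than the genome depended on the measure. By the deposited values, a bin counted as OG-enriched where it reached the 95th percentile of its column in at least 2 of 3 columns. There were 19 of 2436 in WT (0.780 %, against 1.34 % of all bins), 14 in MUTYH-/ (0.575 %, against 1.33 %), 9 in OGG1-/ (0.369 %, against 1.54 %) and 19 in DKO (0.780 %, against 1.3 %). No bin of the cluster was enriched in all 4 genotypes, against 0.0313 % of all bins. The enriched bins of OGG1-/ included 3 of the 191 histone gene bins, those of MUTYH-/ 2 and those of WT and DKO none. In the neighbouring region, 0.308 to 0.462 % of the bins were enriched. When bins were ranked on log2 OG over input reads, the cluster had 22 enriched bins in WT (0.906 %, against 0.814 % of all bins) and 19 in MUTYH-/ (0.782 %, against 0.869 %). It then had 23 in OGG1-/ (0.947 %, against 0.896 %), 6 of them histone gene bins, and 21 in DKO (0.865 %, against 0.887 %).

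The tests on single bins gave no bin of the cluster past an adjusted p of 0.05 in limma. At an unadjusted p under 0.05, 102 of 2434 tested bins were found in MUTYH-/ (background 4.39 % of bins), 94 in OGG1-/ (4.1 %) and 108 in DKO (4.31 %). Over all bins, 0.0005 % passed the adjusted threshold in MUTYH-/, 0.00025 % in OGG1-/ and 0.00139 % in DKO. By the looser rule of the study for OG-differentially enriched regions (OG-DERs, here with a limma p up to 0.01 before adjustment and a change of over 0.5 on the log2 scale), 3 bins gained and 4 lost signal in MUTYH-/ (background 0.3 % gains and 0.322 % losses). In OGG1-/ 8 gained and 4 lost (0.299 % and 0.256 %), and in DKO 15 gained and 4 lost (0.296 % and 0.312 %). Gains and losses together were 0.288 % of the tested cluster bins in MUTYH-/ (against 0.622 % of all tested bins). They were 0.493 % in OGG1-/ (against 0.555 %) and 0.781 % in DKO (against 0.609 %). The fit gave each bin the variance of the trend, so that its own spread did not enter its p.

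The OG-DERs comprised 35 different bins, 10 of which lay over a listed gene. Of the 2436 cluster bins, 1659 lay outside listed genes when the 1 kb before protein-coding genes was counted as gene. The 10 were counted on gene bodies alone, so the 2 shares do not follow the same rule. The largest gain in MUTYH-/ was in ZSCAN12 (chr6:28381001-28382000), with -0.126, -1.59 and -0.277 in WT and 1.69, 3.26 and 2.35 in MUTYH-/ (log2 fold change 4.40 ± 1.54; limma adjusted p = 0.985). The largest loss was in GPX6 (chr6:28520001-28521000), with 3.46, 4.01 and 1.30 in WT and -0.795, -0.208 and -0.974 in MUTYH-/ (-4.59 ± 1.49; limma adjusted p = 0.985). In both bins the MUTYH-/ columns were apart from the WT columns. The bins were chosen by this difference, so the separation is not further support for it.

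In OGG1-/ the largest gain was in ZSCAN31 (chr6:28335001-28336000; log2 fold change 4.08 ± 1.44) and the largest loss over ZSCAN26 (chr6:28271001-28272000; -4.25 ± 1.53), with limma adjusted p = 0.998 in both. In DKO the largest gain was 451 bp from H3C1 (chr6:26019001-26020000; 4.28 ± 1.54) and the largest loss 377 bp from PRSS16 (chr6:27257001-27258000; -4.80 ± 1.54), both at a limma adjusted p = 0.990. Bins of 0 or less after subtraction enter these fold changes through a pseudocount of 1. At TRL-CAA3-1 the log2 fold change was 2.87 in OGG1-/ and 3.07 in DKO, and both comparisons used the same WT columns.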

How the data were processed

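HAP1 cells of 4 genotypes were measured by OG-seq, and the table of 1 kb bins was used. Per the submitters' processing notes and the methods, the authors trimmed reads with cutadapt 2.8, mapped them to GRCh38 with Bowtie2 2.3.5.1, counted them with bedtools, and subtracted input scaled by signal extraction scaling. The deposited unit is thus a score in OG reads, which can be below 0. It is not a raw count, so no count model was run.

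Whole OG and input reads were solved from the scores and used for depth (59601849 to 113915679 OG reads per column), counting error and 1 alternative. PCR duplicates make counting errors a lower bound. Means over bins were compared between genotypes with exact permutation tests and within columns with sign flips. Windows of 100 kb (at least 50 bins not at 0 in every column, pseudocount 0.1) and bins (scores below 0 set to 0, columns scaled to their mean total, above 0 in at least 3 columns, pseudocount 1) were fitted with limma 3.58.1 in R 4.3.3 with a trend, across the genome, with Benjamini-Hochberg adjustment. For bins the prior degrees of freedom were infinite. The fits were tested on simulated data. Family, short-gene and histone-minus-other tests between genotypes were chosen once the values were known. GC content, CpG and G4 motifs came from GRCh38, genes from GENCODE 44 and RefSeq. Python 3.11.15 was used.

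Named genes were all linker histones, HFE, GPX5, GPX6, PRSS16, BTN3A1, BTN2A2, ZNF184 and ZSCAN12, in each core histone family the highest and lowest gene, the 3 highest and lowest tRNA loci and other protein-coding genes, the largest OG-DERs, the highest and lowest bins and the window with the smallest p. The second highest bin is not reported here. The region, gene lists and tests were chosen with earlier results of these data known. Alternatives changed the scaling, GC correction, overlap, window, pseudocount, filter, measure and replicates.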

Additional observations from a re-analysis of the deposited data

Results flagged for a closer look

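After centring within GC strata, histone gene bins differed from the other cluster bins in opposite directions in OGG1-/ and DKO columns. The mean difference was 0.110 in OGG1-/ (above 0 in 3 of 3 columns, up to 0.198) and -0.0487 in DKO (below 0 in 3 of 3 columns, down to -0.0980). In both genotypes, the column nearest 0 was closer to 0 than the counting SD given above for the mean over histone gene bins. The direction of those columns is therefore weak. WT and MUTYH-/ were on the side of DKO and further from 0, at -0.0956 and -0.114, with 1 of 3 columns above 0 in each. The difference between OGG1-/ and DKO was not tested, and an exact test over 3 columns of 1 genotype cannot go below p = 0.25. Without the centring, histone gene bins were above the others by 0.281 in OGG1-/ and by 0.0865 in DKO.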

How the results depend on the processing

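Over 28 results, 255 of 299 alternatives left the direction and the side of the threshold as reported or, for counts, gave a number within 1.5 times the reported one. The exact tests between genotypes cannot give a p below 0.1, so they could not cross the threshold in any alternative. For these results only the direction could change. Centring within GC strata took the cluster's excess over the neighbouring region to 0.00320 and reversed the excess of histone gene bins (-0.0371) and tRNA gene bins (-0.0845), which have a higher GC content. The histone excess was 0.0600 with values below 0 set to 0 (permutation p = 0.0659), and 0.0961 to 0.116 without 1 replicate number (permutation p = 0.0703 without replicate 1 and 0.0781 without replicate 2). The tRNA excess was 0.0818 with an overlap of at least 50 bp (permutation p = 0.0386) and 0.0648 with 500 bp on either side (permutation p = 0.0283). The near-zero MUTYH-/ difference of histone gene bins turned to -0.0114 with the median as scale, -0.0127 with values below 0 set to 0, -0.00723 with GC strata, and -0.116 for genes of at most 2 kb, and spanned -0.0936 to 0.0602 without 1 replicate number. For histone minus other bins, MUTYH-/ turned to 0.00777 in the log2 ratio and spanned -0.109 to 0.0393 without 1 replicate number, and DKO -0.0228 to 0.150. The change of the cluster's excess over the neighbour then spanned -0.0128 to 0.0822 in MUTYH-/ and -0.0654 to 0.00357 in DKO. The cause of these changes was not tested.

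Enriched bins in WT, MUTYH-/, OGG1-/ and DKO numbered 70, 63, 75 and 84 at the 90th percentile, 1, 0, 0 and 2 at the 99th, and 0, 0, 0 and 0 when 3 of 3 columns were required. With GC strata MUTYH-/ had 9 (0.369 %, against 1.07 % of all bins). By the log2 ratio OGG1-/ had 23 (0.947 %, against 0.896 % of all bins). OG-DERs in MUTYH-/ were 15 without the filter (0.616 % of cluster bins, against 1.07 % of all bins). In the 3 knockouts 0, 0 and 0 cluster bins passed the adjusted p. Leaving out 1 replicate number gave 3 to 7 in MUTYH-/, 4 to 7 in OGG1-/ and 6 to 9 in DKO, with fewer columns in the fit. Without scaling of the columns, gains and losses over the genome in MUTYH-/ were 9939 and 4914, against 8414 and 9029, and in the cluster 3 and 3.

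Whether the replicate numbers shared by the genotypes pair the columns could not be settled. Deviations of columns with the same number had r from -0.413 to 0.340 (mean -0.0221). Those of columns with different numbers had r from -0.295 to 0.460 (mean 0.0115). For 6 of 12 columns, the best match in another genotype had their own number. With the replicate number as a block, no test of a mean or window changed its side of the threshold, although the exact tests could not go below p = 0.25. OG-DERs numbered 7, 12 and 18, against 7, 12 and 19. With the block they were 0.288, 0.493 and 0.740 % of tested cluster bins, against 0.619, 0.553 and 0.606 % of all tested bins. Depth limits single bins and genes, and the design of 3 against 3 limits every exact test of 1 value to p = 0.1.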
